A study of Mus musculus with 6 samples.

Results

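Mitosis and spindle genes are the genes a cell switches on late in its cycle to condense, align and separate its chromosomes and to divide. The set was a list of 60 such genes, chosen by name: those of the G2 and M phases, the spindle and the kinetochore. Earlier results of these data were known when it was chosen, so the counts below are a description of the list. Of these, 59 were measured by a probe set carrying a single gene symbol, among 19938 genes measured in all. Ccnb1, the gene of cyclin B1, was not analysed here, and Sgol1 of the list appears under its current symbol, Sgo1. Expression was measured in conventional dendritic cells (cDC), the cells that take up antigen and present it to T cells, which were sorted from spleen. All mice were wild type. The 3 sorted populations, with 2 Affymetrix arrays each, were cDC2 positive for both CD24 and CD172a (CD24+CD172a+ cDC2), cDC2 positive for CD172a alone (CD24-CD172a+ cDC2) and CD24-positive cDC1 (CD24+ cDC1). CD24 is a small surface glycoprotein and CD172a, encoded by Sirpa, is an inhibitory receptor that marks cDC2. The labels give no genotype other than wild type, no age, sex or treatment, and leave it unsaid if the 2 arrays per population used separate or pooled mice. The p-values below therefore measure only the spread between arrays, which may be technical.

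Entry into mitosis is driven by the kinase Cdk1 with its A and B cyclins. Condensin then compacts the chromosomes, kinesin motors and microtubule-binding proteins build the spindle, kinetochores attach the chromosomes to it, and the checkpoint holds anaphase until all are attached. Most of these genes are transcribed in a burst in G2 and M phase, so their messages are abundant only in dividing cells. Dendritic cell precursors divide, and some splenic cDC still do before they are replaced. In RNA from a sorted population, a smaller share of dividing cells and less mitotic RNA per dividing cell cannot be told apart.

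Values are log2 intensities after the authors' normalisation, and a difference of 1 on this scale is a doubling. A gene rose or fell where limma's p-value, adjusted over all 19938 genes by the Benjamini-Hochberg method, was under 0.05. The sorted populations matched their labels in the order of marker RNA: Cd24a read 10.94 and 10.82 in CD24+CD172a+ cDC2, against 8.68 and 8.97 in CD24-CD172a+ cDC2 and 11.83 and 11.66 in CD24+ cDC1. Cd24a RNA was thus lower but not absent in CD24-CD172a+ cDC2, where the upper quartile of genes was 6.47 and 6.46. Sirpa lay between 10.01 and 10.27 in CD24+CD172a+ cDC2, against 10.18 to 10.20 in CD24-CD172a+ cDC2 and 4.97 to 5.39 in CD24+ cDC1. Of 8 cDC1 markers, 8 were lower in CD24+CD172a+ cDC2 than in CD24+ cDC1, and of 7 cDC2 markers, 6 were higher there. Array medians lay between 29.5 and 30.6 units of linear intensity, and arrays of 1 population correlated at 0.992 to 0.993 over all genes.

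Most mitosis and spindle genes were highest in CD24+CD172a+ cDC2. Against CD24-CD172a+ cDC2, 16 of 59 rose, 0 fell, and 43 did not pass the test; over all genes, 0.808% rose and 0.652% fell in this comparison. At an unadjusted p under 0.05, limma counted 44 of the 59 upwards and 0 downwards, against 7.89% and 6.15% of all genes. The difference was positive for 59 of 59 genes, with a median of 0.51 and a range of 0.07 to 1.10, while 47.5% of all genes had a positive difference and their median was -0.01. For 46 of the 59, both arrays of CD24+CD172a+ cDC2 lay above both of CD24-CD172a+ cDC2, which held for 21.4% of all genes. The genes vary together from array to array, so these counts are not 59 separate observations.

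Against CD24+ cDC1 most of the genes were also higher in CD24+CD172a+ cDC2, and this comparison shares the arrays of CD24+CD172a+ cDC2 with the one above. There 28 of 59 genes rose, 0 fell and 31 did not pass, against 7.11% of all genes that rose and 6.52% that fell; at an unadjusted p under 0.05, limma counted 40 upwards and 0 downwards, against 12% and 11.7% of all genes. The median difference was 0.56, with a range of -0.19 to 1.34, and the median of all genes was -0.03. Both arrays of CD24+CD172a+ cDC2 lay above both of CD24+ cDC1 for 43 genes and below them for 2, Sgo1 and Cenpi; over all genes these shares were 23.5% and 28.6%. Between CD24-CD172a+ cDC2 and CD24+ cDC1 the differences were of both signs, with 3 genes higher, 2 lower, 54 that did not pass and a median of -0.08. Over all genes, 6.83% rose and 8.91% fell in this comparison.

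Gene by gene, the mean was highest in CD24+CD172a+ cDC2 for 50 genes, in CD24-CD172a+ cDC2 for 0 and in CD24+ cDC1 for 9; over all genes, 27.2% had their highest mean in CD24+CD172a+ cDC2, 34.3% in CD24-CD172a+ cDC2 and 38.5% in CD24+ cDC1. The lowest mean lay in CD24+CD172a+ cDC2 for 0 genes, in CD24-CD172a+ cDC2 for 35 and in CD24+ cDC1 for 24; over all genes, 34.4% had their lowest mean in CD24+CD172a+ cDC2, 31.6% in CD24-CD172a+ cDC2 and 34% in CD24+ cDC1. The 9 genes highest in CD24+ cDC1 were Cdk1, Plk1, Aurka, Cdc20, Sgo1, Cenpi, Kif2c, Kif23 and Ect2, and none of the 9 passed the test between CD24+CD172a+ cDC2 and CD24+ cDC1. As a summary of levels, the median of the 59 genes was 5.88 and 5.99 on the arrays of CD24+CD172a+ cDC2, against 5.28 and 5.50 in CD24-CD172a+ cDC2 and 5.52 and 5.38 in CD24+ cDC1, where the median gene lay between 5.01 and 5.03 on every array. Their summed linear intensity was 5856 and 6450 units in CD24+CD172a+ cDC2, against 3846 and 4242 in CD24-CD172a+ cDC2 and 3927 and 3864 in CD24+ cDC1.

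**Figure D1:**
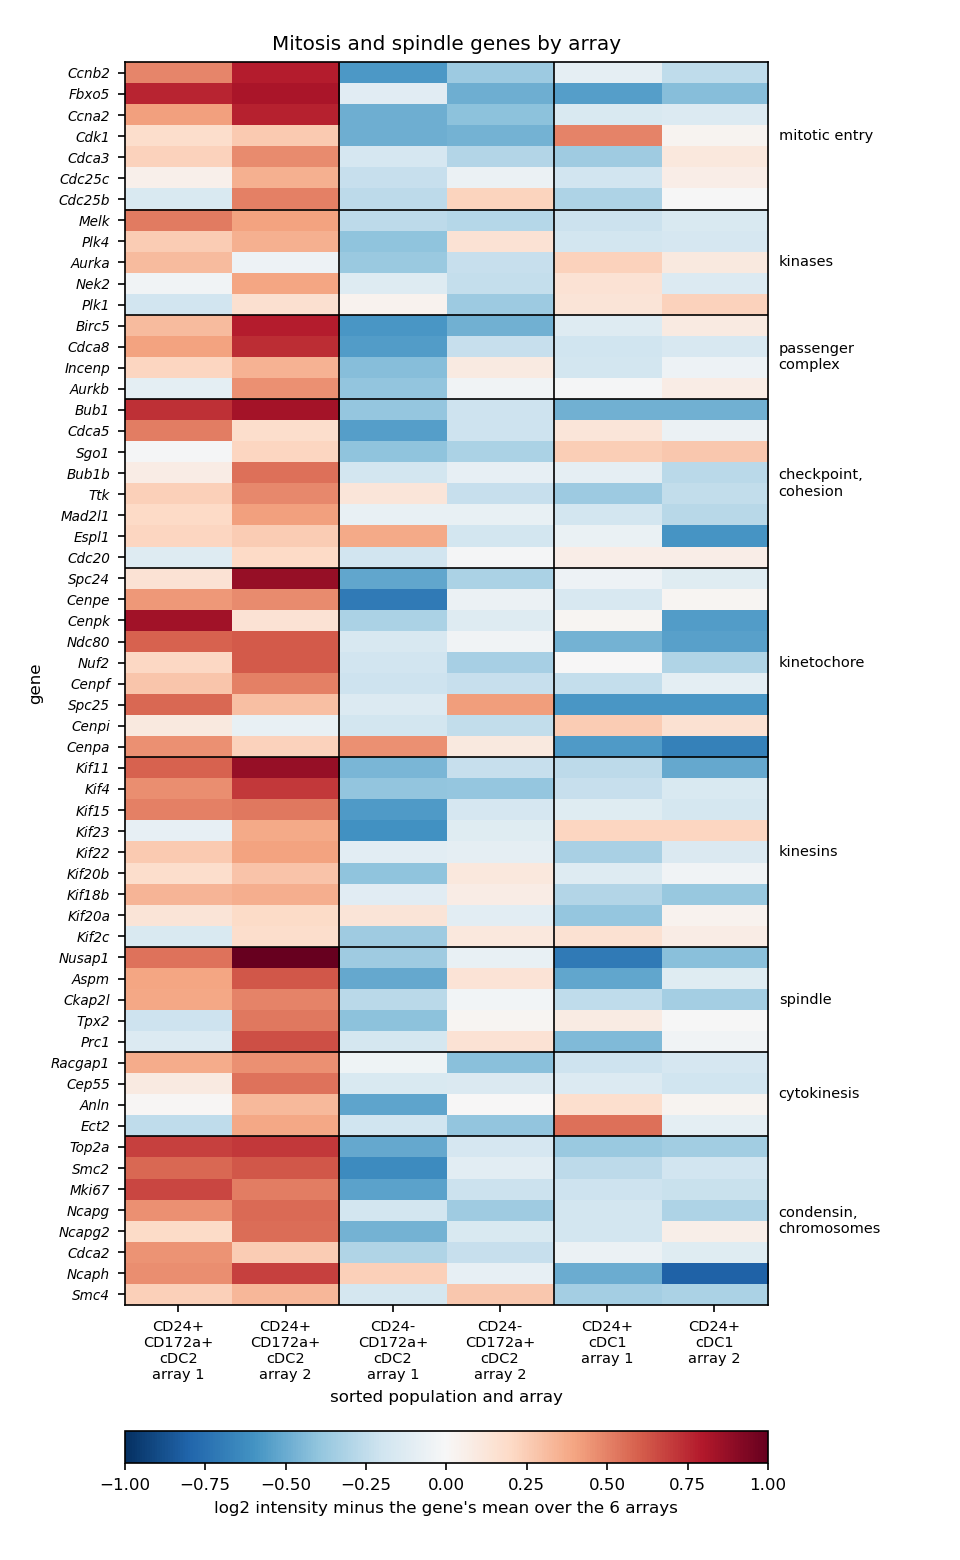
Log2 intensity of each of the 59 mitosis and spindle genes (rows, grouped by role) on each of the 6 arrays (columns), as the difference from that gene's mean over the 6 arrays; red is above the mean and blue below it. The pair of CD24+CD172a+ cDC2 columns on the left is red for most rows, and the CD24-CD172a+ cDC2 and CD24+ cDC1 columns are mostly blue.

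The genes with the largest differences between the cDC2 populations came from several steps of mitosis. Ccnb2, cyclin B2, a partner of Cdk1, had a log2 intensity of 8.41 and 8.71 in CD24+CD172a+ cDC2, against 7.34 and 7.56 in CD24-CD172a+ cDC2 and 7.83 and 7.67 in CD24+ cDC1. It was highest on both arrays of CD24+CD172a+ cDC2 and lowest on both of CD24-CD172a+ cDC2, with no overlap between any of the 3 populations; it rose by 1.10 ± 0.15 over CD24-CD172a+ cDC2 (SE, adjusted p = 0.00948) and by 0.81 ± 0.15 over CD24+ cDC1 (adjusted p = 0.00431). Fbxo5, which encodes Emi1, an inhibitor of the anaphase-promoting complex, read 7.11 and 7.16 in CD24+CD172a+ cDC2, against 6.23 and 5.86 in CD24-CD172a+ cDC2 and 5.80 and 5.92 in CD24+ cDC1. Only the arrays of CD24+CD172a+ cDC2 stood apart for Fbxo5, and it rose by 1.09 ± 0.15 over CD24-CD172a+ cDC2 (adjusted p = 0.00973) and by 1.28 ± 0.15 over CD24+ cDC1 (adjusted p = 0.000185). Birc5, survivin, a subunit of the chromosomal passenger complex, measured 7.34 and 7.81 in CD24+CD172a+ cDC2, against 6.44 and 6.54 in CD24-CD172a+ cDC2 and 6.89 and 7.11 in CD24+ cDC1. Its arrays did not overlap either, with CD24+ cDC1 in the middle, and it rose by 1.08 ± 0.17 over CD24-CD172a+ cDC2 (adjusted p = 0.0142) and by 0.57 ± 0.17 over CD24+ cDC1 (adjusted p = 0.0479). Bub1, a kinase of the spindle checkpoint, stood at 6.54 and 6.64 in CD24+CD172a+ cDC2, against 5.42 and 5.60 in CD24-CD172a+ cDC2 and 5.33 and 5.33 in CD24+ cDC1. It was low in both other populations, and rose by 1.08 ± 0.13 over CD24-CD172a+ cDC2 (adjusted p = 0.00495) and by 1.26 ± 0.13 over CD24+ cDC1 (adjusted p = 7.40e-05).

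The start regions of these 4 genes are shown because many genes expressed in G2 and M phase carry in their promoters a cell cycle homology region, TTTGAA or TTTAAA, bound by the MuvB complex, often with the CCAAT box bound by NF-Y nearby. Each window holds 250 bases before and 50 after the RefSeq start, on GRCm38.p6, read 5′ to 3′ on the gene's strand; capitals mark these 3 motifs on either strand, so that TTCAAA is TTTGAA and ATTGG is CCAAT on the other strand.
Ccnb2, chr9:70421505-70421804, minus strand: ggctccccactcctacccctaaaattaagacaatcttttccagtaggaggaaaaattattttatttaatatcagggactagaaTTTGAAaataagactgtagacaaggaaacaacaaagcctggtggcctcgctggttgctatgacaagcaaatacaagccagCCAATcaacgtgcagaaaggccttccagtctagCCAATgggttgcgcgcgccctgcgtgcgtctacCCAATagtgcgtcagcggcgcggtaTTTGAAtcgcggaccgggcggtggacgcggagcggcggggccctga
Fbxo5, chr10:5805416-5805715, minus strand: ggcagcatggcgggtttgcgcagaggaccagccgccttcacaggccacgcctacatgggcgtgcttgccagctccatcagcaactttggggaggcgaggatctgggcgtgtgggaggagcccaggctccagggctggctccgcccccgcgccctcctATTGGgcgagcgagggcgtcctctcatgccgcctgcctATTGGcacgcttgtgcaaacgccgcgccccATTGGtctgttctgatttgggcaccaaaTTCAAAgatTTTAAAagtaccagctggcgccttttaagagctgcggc
Birc5, chr11:117848987-117849286, plus strand: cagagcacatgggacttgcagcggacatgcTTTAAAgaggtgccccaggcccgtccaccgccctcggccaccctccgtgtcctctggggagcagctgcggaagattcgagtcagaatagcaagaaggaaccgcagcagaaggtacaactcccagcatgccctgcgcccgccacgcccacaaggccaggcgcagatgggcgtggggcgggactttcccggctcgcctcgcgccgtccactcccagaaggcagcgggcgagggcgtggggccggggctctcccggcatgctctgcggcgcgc
Bub1, chr2:127831810-127832109, minus strand: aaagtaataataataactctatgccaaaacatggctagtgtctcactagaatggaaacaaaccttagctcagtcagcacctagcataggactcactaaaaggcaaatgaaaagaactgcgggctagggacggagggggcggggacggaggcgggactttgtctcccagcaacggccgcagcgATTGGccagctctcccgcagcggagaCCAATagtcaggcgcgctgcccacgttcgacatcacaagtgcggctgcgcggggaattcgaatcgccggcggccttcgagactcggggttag

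The Ccnb2 window held TTTGAA at bases -167 and 5 from the start, whose own base counts as 1, and 3 CCAAT boxes, at -87, -54 and -21. Fbxo5 had TTTGAA at 4 and TTTAAA at 13, and 3 CCAAT boxes at -93, -55 and -25. The Birc5 window held TTTAAA at -220 and no CCAAT, and that of Bub1 held CCAAT at -68 and -42 and neither form of the homology region. A window was held for 50 of the 59 genes, among 27025 genes of the table. For 23 of the 46 genes with a single window, its start was the outermost annotated base of the gene. Distances are from the start of the window's own transcript. TTTGAA, on either strand, was in 36 of the 50 (72%) and in 20.2% of all genes of the table; CCAAT was in 35 (70%) and in 41.1%. TTTAAA, which reads the same on both strands, was in 22% and 14.9%. The E2F forms TTCCCGC and TTTGGCGC were in 8% and 2% of the 50, and in 5.29% and 0.585% of all genes. Either form of the homology region lay within 60 bases of the start in 35 of the 50 (70%), against 10.5% of all genes, a distance chosen after the matches were seen. A match of letters is a description and not a bound site.

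Among the 7 measured genes of mitotic entry, 3 rose in CD24+CD172a+ cDC2 over CD24-CD172a+ cDC2 and the same count rose over CD24+ cDC1. Beside Ccnb2 and Fbxo5 this was Ccna2, cyclin A2, which acts from S phase into early mitosis, at 7.34 and 7.70 in CD24+CD172a+ cDC2, against 6.44 and 6.52 in CD24-CD172a+ cDC2 and 6.77 and 6.79 in CD24+ cDC1. It was highest in CD24+CD172a+ cDC2 without overlap and rose by 1.04 ± 0.15 over CD24-CD172a+ cDC2 (adjusted p = 0.00973). Cdk1, the kinase that these cyclins activate, followed another order, at 6.60 and 6.68 in CD24+CD172a+ cDC2, against 5.93 and 5.95 in CD24-CD172a+ cDC2 and 6.92 and 6.45 in CD24+ cDC1. The arrays of CD24+CD172a+ cDC2 lay inside the spread of CD24+ cDC1 and above CD24-CD172a+ cDC2; its difference from CD24-CD172a+ cDC2, 0.70 ± 0.16, did not pass (adjusted p = 0.0685), nor did that from CD24+ cDC1, -0.04 ± 0.16 (adjusted p = 0.928). Cdk1 fell in CD24-CD172a+ cDC2 relative to CD24+ cDC1, with a difference of -0.74 ± 0.16 (adjusted p = 0.00984). The phosphatases that activate Cdk1 differed least in this class, with a difference of 0.20 for Cdc25b and 0.35 for Cdc25c between the cDC2 populations. Cdca3, a mitotic entry factor, had 0.58 (adjusted p = 0.148).

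Of 5 mitotic kinases, Melk alone rose, at 5.65 and 5.53 in CD24+CD172a+ cDC2, against 4.87 and 4.84 in CD24-CD172a+ cDC2 and 4.92 and 4.98 in CD24+ cDC1. Both of its arrays in CD24+CD172a+ cDC2 were above the other 4, and it rose by 0.73 ± 0.13 over CD24-CD172a+ cDC2 (adjusted p = 0.0225). Plk1, the polo-like kinase that drives spindle assembly and mitotic exit, showed the smallest difference of this class, at 4.12 and 4.47 in CD24+CD172a+ cDC2, against 4.35 and 3.95 in CD24-CD172a+ cDC2 and 4.44 and 4.54 in CD24+ cDC1. The arrays of CD24+CD172a+ cDC2 overlapped those of both other populations, and the difference from CD24-CD172a+ cDC2 was 0.15 ± 0.17 (adjusted p = 0.751). Aurka, Aurora A, which acts at the centrosomes and spindle poles, had a difference of 0.44 from CD24-CD172a+ cDC2 and of -0.03 from CD24+ cDC1, neither of which passed. Plk4, the kinase of centriole duplication, and Nek2, which acts in centrosome separation, did not pass in any of the 3 comparisons.

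The chromosomal passenger complex carries the kinase Aurora B to the centromeres and later to the midzone of the spindle. Of its 4 subunits, Birc5 and Cdca8 rose in CD24+CD172a+ cDC2. Cdca8, borealin, measured 6.24 and 6.58 in CD24+CD172a+ cDC2, against 5.28 and 5.61 in CD24-CD172a+ cDC2 and 5.64 and 5.67 in CD24+ cDC1. All 4 arrays outside CD24+CD172a+ cDC2 lay lower, and it rose by 0.96 ± 0.16 over CD24-CD172a+ cDC2 (adjusted p = 0.0197) and by 0.75 ± 0.16 over CD24+ cDC1 (adjusted p = 0.0094). Aurkb, the kinase itself, was at 5.73 and 6.29 in CD24+CD172a+ cDC2, against 5.43 and 5.79 in CD24-CD172a+ cDC2 and 5.82 and 5.90 in CD24+ cDC1. The arrays of the cDC2 populations overlapped for Aurkb, and its difference of 0.40 ± 0.19 did not pass (adjusted p = 0.388); that of the scaffold Incenp was 0.45 (adjusted p = 0.273).

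In the class of checkpoint, anaphase and cohesion genes, Bub1 was the 1 of 8 that rose over CD24-CD172a+ cDC2, and Bub1, Mad2l1 and Ttk rose over CD24+ cDC1. Mad2l1, Mad2, a checkpoint protein that inhibits the anaphase-promoting complex while kinetochores are unattached, read 7.03 and 7.23 in CD24+CD172a+ cDC2, against 6.75 and 6.75 in CD24-CD172a+ cDC2 and 6.64 and 6.55 in CD24+ cDC1. Its arrays in CD24+CD172a+ cDC2 were the highest, and it rose by 0.54 ± 0.13 over CD24+ cDC1 (adjusted p = 0.0207), while the difference from CD24-CD172a+ cDC2 was 0.38 (adjusted p = 0.225). Ttk, the Mps1 kinase and the dimmest of the 59 genes, had 4.06 and 4.31 in CD24+CD172a+ cDC2, against 3.95 and 3.60 in CD24-CD172a+ cDC2 and 3.46 and 3.58 in CD24+ cDC1. Its level was at or below that of the lowest 25% of genes; it rose by 0.66 ± 0.16 over CD24+ cDC1 (adjusted p = 0.0166). Cdc20, which the checkpoint inhibits and which activates the anaphase-promoting complex, had 4.61 and 4.93 in CD24+CD172a+ cDC2, against 4.54 and 4.72 in CD24-CD172a+ cDC2 and 4.80 and 4.80 in CD24+ cDC1, with overlap between the cDC2 populations and a difference of 0.14 ± 0.15 from CD24-CD172a+ cDC2 (adjusted p = 0.731).

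Sgo1, shugoshin, which protects centromeric cohesion, was high in CD24+ cDC1, at 5.27 and 5.49 in CD24+CD172a+ cDC2, against 4.87 and 4.96 in CD24-CD172a+ cDC2 and 5.52 and 5.54 in CD24+ cDC1. The arrays of CD24-CD172a+ cDC2 were the lowest, and Sgo1 fell there relative to CD24+ cDC1, with a difference of -0.62 ± 0.13 (adjusted p = 0.00944); its difference of 0.46 ± 0.13 between the cDC2 populations did not pass (adjusted p = 0.141). Cdca5, sororin, another protector of cohesion, had 0.72 over CD24-CD172a+ cDC2 (adjusted p = 0.0694). Espl1, separase, the protease that cuts cohesin at anaphase, had 0.14 (adjusted p = 0.814), and Bub1b, BubR1, had 0.44 (adjusted p = 0.265).

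The Ndc80 complex, the part of the kinetochore that grips microtubules, has 4 subunits, all measured here. Ndc80 measured 7.24 and 7.26 in CD24+CD172a+ cDC2, against 6.49 and 6.61 in CD24-CD172a+ cDC2 and 6.17 and 6.10 in CD24+ cDC1. It was highest in CD24+CD172a+ cDC2, intermediate in CD24-CD172a+ cDC2 and lowest in CD24+ cDC1, without overlap, and rose by 0.70 ± 0.13 over CD24-CD172a+ cDC2 (adjusted p = 0.0297) and by 1.11 ± 0.13 over CD24+ cDC1 (adjusted p = 0.000141). Spc24 had the largest difference between the cDC2 populations among the listed centromere and kinetochore genes, at 6.78 and 7.50 in CD24+CD172a+ cDC2, against 6.12 and 6.32 in CD24-CD172a+ cDC2 and 6.58 and 6.51 in CD24+ cDC1. Its arrays in CD24+CD172a+ cDC2 were apart from each other, and the difference of 0.92 ± 0.21 from CD24-CD172a+ cDC2 did not pass (adjusted p = 0.0611). Spc25 stood at 6.24 and 5.97 in CD24+CD172a+ cDC2, against 5.53 and 6.09 in CD24-CD172a+ cDC2 and 5.09 and 5.08 in CD24+ cDC1. The cDC2 populations overlapped, and both lay above CD24+ cDC1, by 1.02 ± 0.18 in CD24+CD172a+ cDC2 (adjusted p = 0.00343) and by 0.72 ± 0.18 in CD24-CD172a+ cDC2 (adjusted p = 0.0219). Nuf2 had differences of 0.67 from CD24-CD172a+ cDC2 (adjusted p = 0.0924) and 0.56 from CD24+ cDC1 (adjusted p = 0.0529).

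Cenpa, the histone H3 variant that marks centromeres, had the smallest difference of all 59 genes between the cDC2 populations. Its log2 intensity was 9.23 and 9.004 in CD24+CD172a+ cDC2, against 9.23 and 8.87 in CD24-CD172a+ cDC2 and 8.21 and 8.10 in CD24+ cDC1. The 4 cDC2 arrays overlapped, with a difference of 0.07 ± 0.16 (adjusted p = 0.889), and all 4 lay above CD24+ cDC1, by 0.96 ± 0.16 in CD24+CD172a+ cDC2 (adjusted p = 0.00167) and by 0.90 ± 0.16 in CD24-CD172a+ cDC2 (adjusted p = 0.0025). Among the other kinetochore genes, Cenpe, a kinesin, had 0.83 over CD24-CD172a+ cDC2 (adjusted p = 0.0685). Cenpf, a protein of the outer kinetochore, had 0.61 (adjusted p = 0.0607) and rose by 0.56 over CD24+ cDC1 (adjusted p = 0.0193). Cenpk and Cenpi, of the inner centromere network, had 0.72 and 0.22 over CD24-CD172a+ cDC2, and neither passed.

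Of 9 kinesin motors, 3 rose over CD24-CD172a+ cDC2 and 5 over CD24+ cDC1. Kif11, Eg5, which pushes the spindle poles apart, had 6.89 and 7.17 in CD24+CD172a+ cDC2, against 5.84 and 6.07 in CD24-CD172a+ cDC2 and 6.03 and 5.79 in CD24+ cDC1. The arrays of CD24+CD172a+ cDC2 stood alone above the other 4, and Kif11 rose by 1.07 ± 0.16 over CD24-CD172a+ cDC2 (adjusted p = 0.0102) and by 1.12 ± 0.16 over CD24+ cDC1 (adjusted p = 0.000615). Kif15, which backs up Kif11 in keeping the spindle bipolar, was 6.31 and 6.33 in CD24+CD172a+ cDC2, against 5.23 and 5.63 in CD24-CD172a+ cDC2 and 5.67 and 5.62 in CD24+ cDC1, and rose by 0.88 ± 0.15 over CD24-CD172a+ cDC2 (adjusted p = 0.0225). Kif4, a chromosome-bound motor, was 6.64 and 6.88 in CD24+CD172a+ cDC2, against 5.79 and 5.79 in CD24-CD172a+ cDC2 and 5.94 and 6.03 in CD24+ cDC1. It too was highest on both arrays of CD24+CD172a+ cDC2, and rose by 0.98 ± 0.13 over CD24-CD172a+ cDC2 (adjusted p = 0.00973). Kif18b, which shortens astral microtubules, and Kif22, another chromosome-bound motor, rose over CD24+ cDC1 by 0.69 and 0.57 (adjusted p = 0.00483 and 0.0158), with differences of 0.37 and 0.43 from CD24-CD172a+ cDC2 that did not pass. Kif2c, MCAK, which removes faulty attachments, differed least, at 3.998 and 4.32 in CD24+CD172a+ cDC2, against 3.79 and 4.25 in CD24-CD172a+ cDC2 and 4.30 and 4.22 in CD24+ cDC1. Its populations overlapped, and the difference was 0.14 ± 0.18 (adjusted p = 0.777).

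Kif20a and Kif20b, motors of the central spindle, had differences of 0.15 and 0.38 between the cDC2 populations, which did not pass. Kif23, which with Racgap1 forms centralspindlin, was bright everywhere, at 7.24 and 7.71 in CD24+CD172a+ cDC2, against 6.72 and 7.20 in CD24-CD172a+ cDC2 and 7.54 and 7.54 in CD24+ cDC1. The arrays of CD24+CD172a+ cDC2 lay on either side of those of CD24+ cDC1, and its differences were 0.51 ± 0.19 from CD24-CD172a+ cDC2 (adjusted p = 0.262) and -0.07 ± 0.19 from CD24+ cDC1 (adjusted p = 0.887). Racgap1 had 5.80 and 5.88 in CD24+CD172a+ cDC2, against 5.38 and 5.01 in CD24-CD172a+ cDC2 and 5.22 and 5.26 in CD24+ cDC1. It was higher in CD24+CD172a+ cDC2 on both arrays, with a difference of 0.64 ± 0.15 from CD24-CD172a+ cDC2 (adjusted p = 0.0703), and was the 1 cytokinesis gene of 4 that rose over CD24+ cDC1, by 0.60 ± 0.15 (adjusted p = 0.0221). Ect2, the exchange factor that activates RhoA at the cleavage furrow, overlapped between CD24+CD172a+ cDC2 and each other population, with 0.36 over CD24-CD172a+ cDC2 and -0.16 over CD24+ cDC1. Anln, anillin, and Cep55, a factor of abscission, had 0.43 and 0.47 over CD24-CD172a+ cDC2, and neither passed.

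Nusap1, a microtubule-binding protein of the spindle near the chromosomes, was the 1 of 5 spindle microtubule genes that rose over CD24-CD172a+ cDC2. It measured 6.90 and 7.36 in CD24+CD172a+ cDC2, against 6.003 and 6.28 in CD24-CD172a+ cDC2 and 5.65 and 5.94 in CD24+ cDC1. No other population reached the arrays of CD24+CD172a+ cDC2, and Nusap1 rose by 0.99 ± 0.18 over CD24-CD172a+ cDC2 (adjusted p = 0.0321) and, with the widest difference of the 59 genes from CD24+ cDC1, by 1.34 ± 0.18 (adjusted p = 0.000546). Aspm, a spindle pole protein, and Ckap2l rose over CD24+ cDC1 by 0.83 ± 0.21 and 0.74 ± 0.14 (adjusted p = 0.0257 and 0.00393), and their differences of 0.70 and 0.59 from CD24-CD172a+ cDC2 did not pass. Tpx2, the activator of Aurora A, and Prc1, which bundles microtubules of the midzone, were uneven between the 2 arrays of CD24+CD172a+ cDC2. Prc1 read 4.15 and 4.93 in CD24+CD172a+ cDC2, against 4.11 and 4.43 in CD24-CD172a+ cDC2 and 3.84 and 4.25 in CD24+ cDC1, and its difference from CD24-CD172a+ cDC2 was 0.27 ± 0.24 (adjusted p = 0.673); that of Tpx2 was 0.36 ± 0.22 (adjusted p = 0.524).

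**Figure D2:**
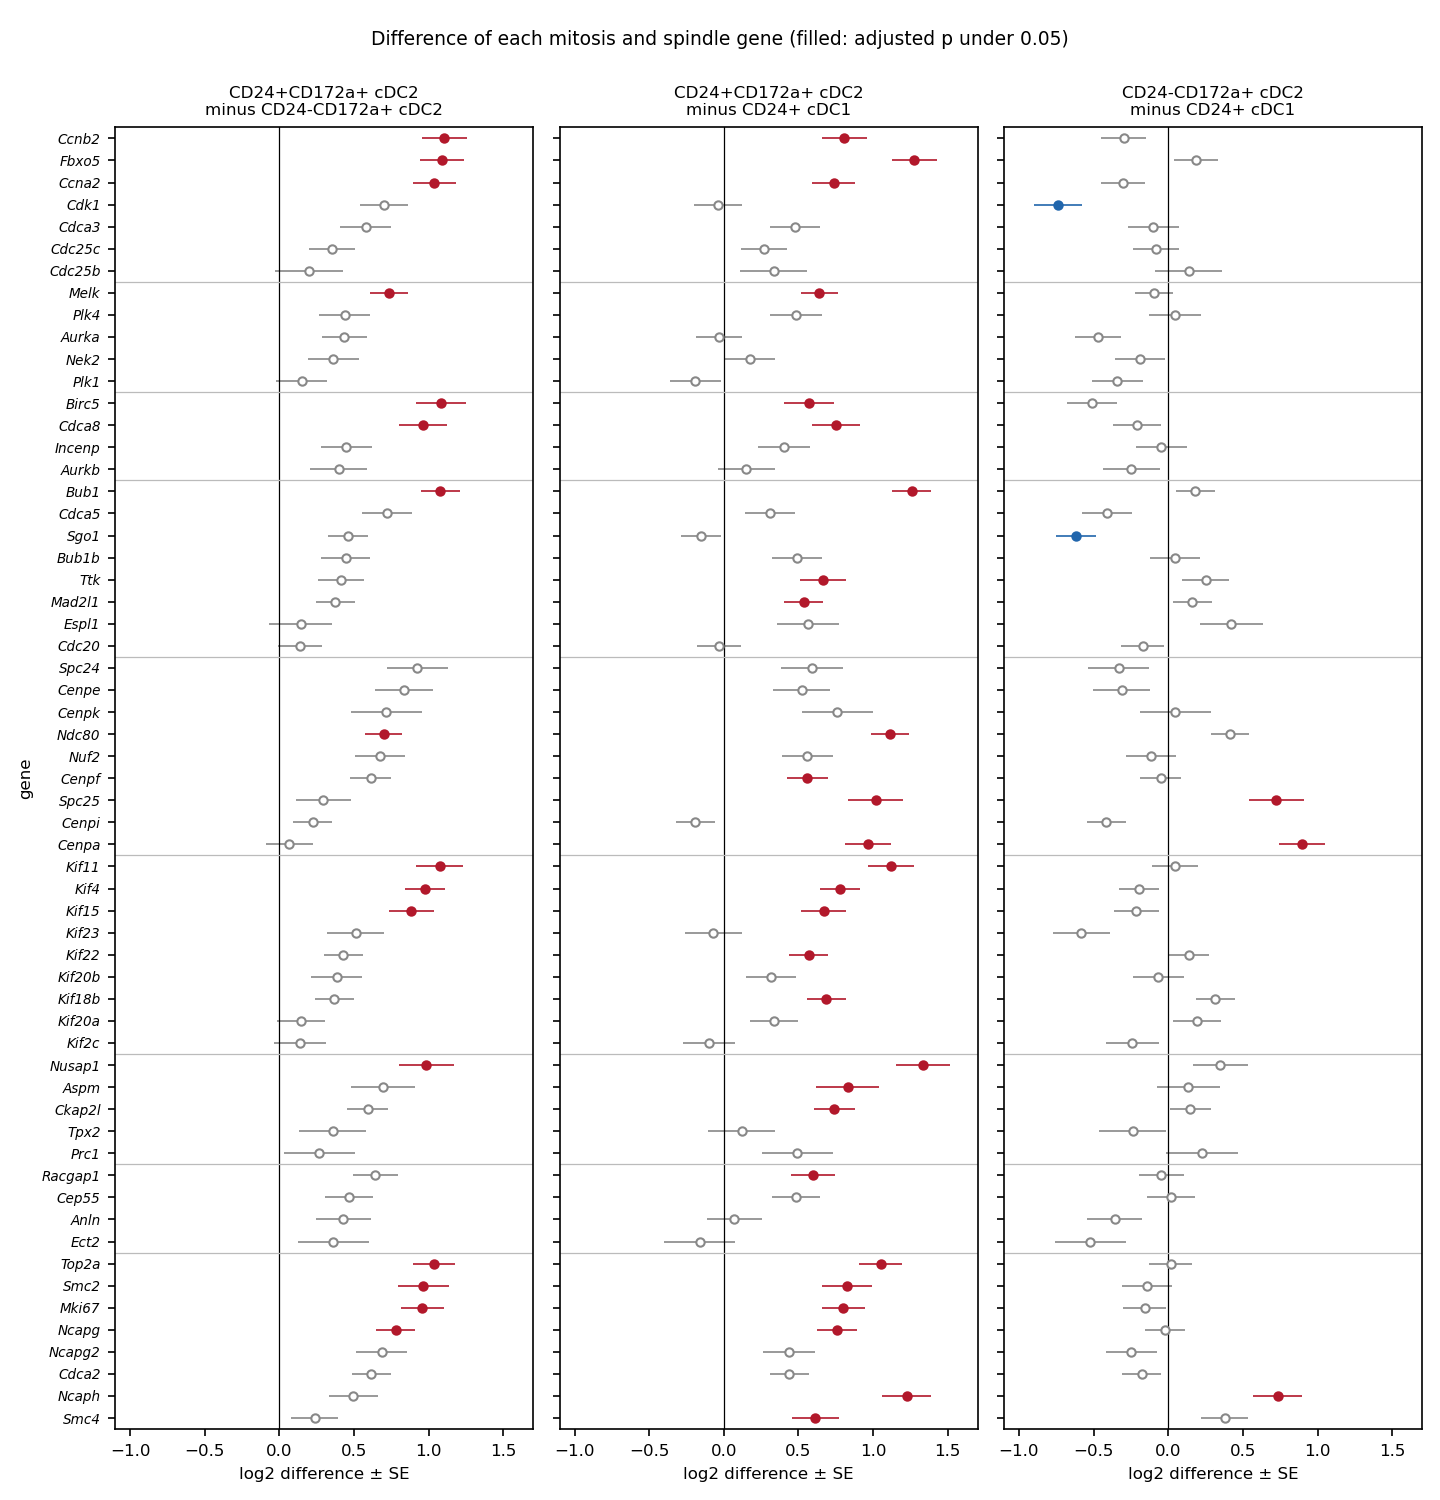
Log2 difference of each gene between CD24+CD172a+ cDC2 and CD24-CD172a+ cDC2, between CD24+CD172a+ cDC2 and CD24+ cDC1, and between CD24-CD172a+ cDC2 and CD24+ cDC1, with 1 standard error to each side and genes grouped by role; filled points have an adjusted p under 0.05. All 59 points of the first comparison lie above 0, and 9 of the second and 35 of the third lie below it.

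Condensin and chromosome structure was the class with the most calls by count, 4 of 8 over CD24-CD172a+ cDC2 and 6 of 8 over CD24+ cDC1. By share, the chromosomal passenger complex equalled it over CD24-CD172a+ cDC2, with 2 of 4. Top2a, topoisomerase II alpha, which untangles sister chromosomes, had 8.68 and 8.70 in CD24+CD172a+ cDC2, against 7.49 and 7.83 in CD24-CD172a+ cDC2 and 7.63 and 7.65 in CD24+ cDC1. Its level in CD24+CD172a+ cDC2 was above that of both other populations, and it rose by 1.04 ± 0.14 over CD24-CD172a+ cDC2 (adjusted p = 0.00973) and by 1.05 ± 0.14 over CD24+ cDC1 (adjusted p = 0.000546). A second, dimmer Top2a probe set, not used in the counts, gave 5.06 and 4.79 in CD24+CD172a+ cDC2, against 4.97 and 5.23 in CD24-CD172a+ cDC2 and 4.45 and 3.67 in CD24+ cDC1. There the cDC2 populations differed by -0.18 ± 0.23 (adjusted p = 0.79 over all probe sets) and CD24+CD172a+ cDC2 exceeded CD24+ cDC1 by 0.87 ± 0.23 (adjusted p = 0.0367), so the rise over CD24-CD172a+ cDC2 was not seen in it; with the mean of both probe sets the Top2a difference from CD24-CD172a+ cDC2 was 0.43 (adjusted p = 0.265). A pair of further probe sets was annotated to Top2a and Hibadh together and so left out of the tests. The dimmer gave 7.70 and 7.22 in CD24+CD172a+ cDC2, against 7.59 and 7.71 in CD24-CD172a+ cDC2 and 6.75 and 6.35 in CD24+ cDC1. The brighter gave 8.23 and 7.68 in CD24+CD172a+ cDC2, against 8.06 and 8.21 in CD24-CD172a+ cDC2 and 7.12 and 6.71 in CD24+ cDC1. On both, the arrays of CD24+CD172a+ cDC2 overlapped those of CD24-CD172a+ cDC2 and lay above those of CD24+ cDC1. Mki67, Ki-67, which coats mitotic chromosomes and is the usual marker of cycling cells, measured 8.03 and 7.87 in CD24+CD172a+ cDC2, against 6.83 and 7.15 in CD24-CD172a+ cDC2 and 7.16 and 7.14 in CD24+ cDC1. It rose by 0.96 ± 0.15 over CD24-CD172a+ cDC2 (adjusted p = 0.013) and by 0.80 ± 0.15 over CD24+ cDC1 (adjusted p = 0.00361).

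Condensin is the ring that compacts mitotic chromosomes. Smc2, an ATPase subunit of both condensins, was 7.08 and 7.12 in CD24+CD172a+ cDC2, against 5.87 and 6.39 in CD24-CD172a+ cDC2 and 6.24 and 6.31 in CD24+ cDC1. It rose by 0.97 ± 0.17 over CD24-CD172a+ cDC2 (adjusted p = 0.0258), with both arrays of CD24+CD172a+ cDC2 on top. Smc4, its ATPase partner and the brightest of the 59 genes, was 9.20 and 9.29 in CD24+CD172a+ cDC2, against 8.79 and 9.24 in CD24-CD172a+ cDC2 and 8.62 and 8.65 in CD24+ cDC1. Its cDC2 arrays overlapped, with a difference of 0.24 ± 0.16 (adjusted p = 0.555), and it rose by 0.61 ± 0.16 over CD24+ cDC1 (adjusted p = 0.026). Ncapg, a condensin I subunit, read 6.31 and 6.42 in CD24+CD172a+ cDC2, against 5.67 and 5.50 in CD24-CD172a+ cDC2 and 5.67 and 5.54 in CD24+ cDC1, and rose by 0.78 ± 0.13 over CD24-CD172a+ cDC2 (adjusted p = 0.0224). Ncaph, which closes the ring of condensin I, had 6.65 and 6.87 in CD24+CD172a+ cDC2, against 6.43 and 6.11 in CD24-CD172a+ cDC2 and 5.69 and 5.38 in CD24+ cDC1. It stepped down through the 3 populations without overlap; its difference of 0.49 ± 0.16 between the cDC2 populations did not pass (adjusted p = 0.2), and it rose over CD24+ cDC1 by 1.23 ± 0.16 in CD24+CD172a+ cDC2 (adjusted p = 0.000483) and by 0.73 ± 0.16 in CD24-CD172a+ cDC2 (adjusted p = 0.0116). Ncapg2, of condensin II, and Cdca2, which brings a phosphatase to chromosomes, had 0.68 and 0.62 over CD24-CD172a+ cDC2 (adjusted p = 0.0925 and 0.0513).

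Between CD24-CD172a+ cDC2 and CD24+ cDC1, the 5 genes that passed were those named above: Cenpa, Ncaph and Spc25 rose in CD24-CD172a+ cDC2, and Cdk1 and Sgo1 fell. The difference was positive for 24 genes and negative for 35, where 50.2% of all genes had a positive difference. Both arrays of CD24-CD172a+ cDC2 lay above both of CD24+ cDC1 for 11 genes and below them for 19, where these shares were 25% and 27.4% of all genes. Leaving out each of the 4 arrays compared, Cenpa passed in all 4 fits, Cdk1 in 3, Ncaph in 2, and Sgo1 and Spc25 in 1 each. The median difference of the 59 genes was 0.000556 without array 1 of CD24-CD172a+ cDC2 and -0.155 without array 2.

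**Figure D3:**
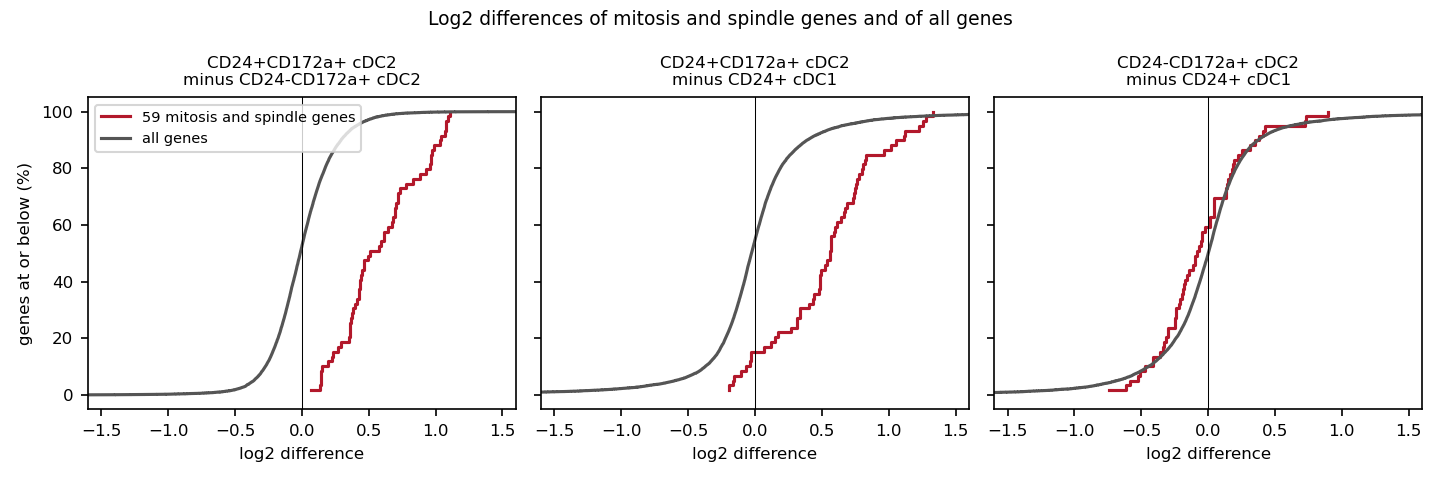
Cumulative share of genes (%) at or below each log2 difference, for the 59 mitosis and spindle genes and for all 19938 genes, in the 3 comparisons. The curve of the 59 genes lies to the right of that of all genes for CD24+CD172a+ cDC2 over each other population (medians 0.51 and 0.56), and close to it for CD24-CD172a+ cDC2 over CD24+ cDC1 (median -0.08).

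More of the bright genes than of the dim genes passed. Of the 41 genes above the median gene, 16 rose in CD24+CD172a+ cDC2 over CD24-CD172a+ cDC2, with a median difference of 0.70, and 23 rose over CD24+ cDC1. Of the 18 at or below it, 0 rose over CD24-CD172a+ cDC2, with a median of 0.36, and 5 rose over CD24+ cDC1. A separate fit held only the 9969 genes left by a filter on the same mean, at the median gene, and shares this limit. In it, 22 of the 41 rose over CD24-CD172a+ cDC2 and 27 over CD24+ cDC1. The shares of all genes in that fit were 2.7% and 15.3%, against 0.808% and 7.11% in the fit of 19938 genes. Ttk and Cdc25c lay at or below the lowest 25% of genes. Plk1, Kif2c and Cdc20 were among the dim genes, and signal over background of single probe sets was not examined.

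**Figure D4:**
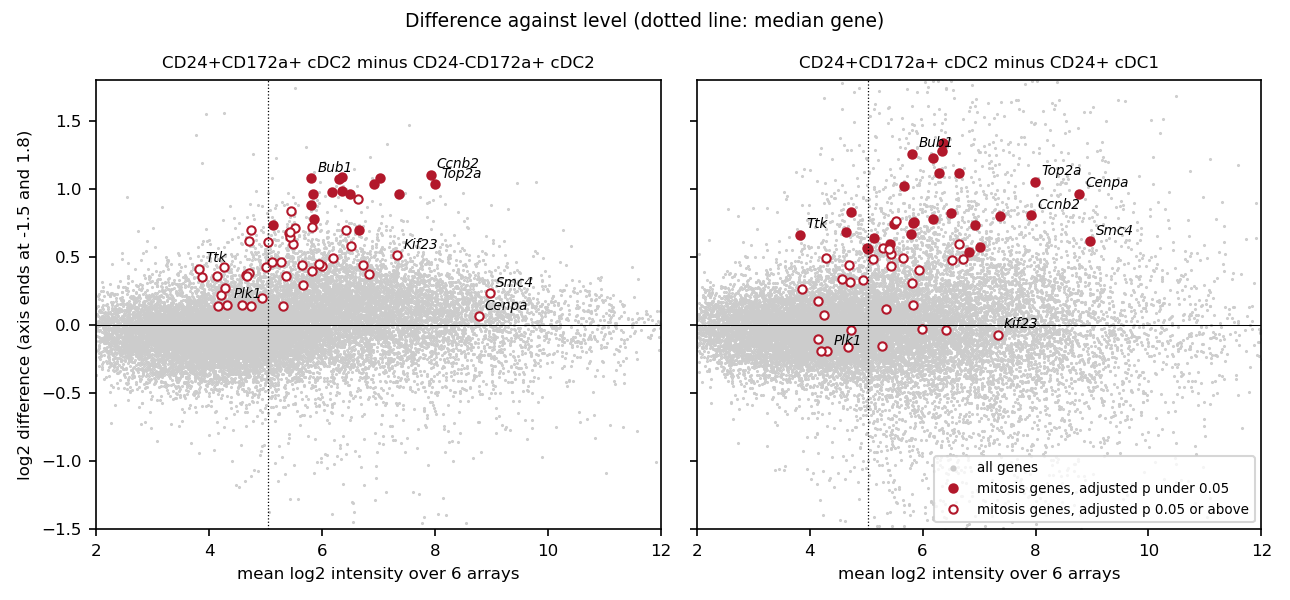
Log2 difference (vertical axis) against mean log2 intensity over the 6 arrays (horizontal axis) for all genes in grey and the mitosis and spindle genes in red, filled where the adjusted p was under 0.05; the dotted line is the median gene. The panels show CD24+CD172a+ cDC2 over CD24-CD172a+ cDC2 and over CD24+ cDC1. In the comparison with CD24-CD172a+ cDC2 the 16 filled points lie right of this line.

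The 59 genes were less even between replicate arrays of the cDC2 populations than other genes. The arrays of CD24+CD172a+ cDC2 differed with array 2 higher for 50 of 59 genes, by a median of 0.22, and those of CD24-CD172a+ cDC2 with array 2 higher for 43, by a median of 0.18; in CD24+ cDC1 this was 30 of 59 and 0.00. Their median SD was 0.171 in CD24+CD172a+ cDC2 (0.0994 over all genes), 0.168 in CD24-CD172a+ cDC2 (0.109 over all genes) and 0.0774 in CD24+ cDC1 (0.0972 over all genes). The calls against CD24-CD172a+ cDC2 depended on single arrays, and each fit below leaves 1 population with 1 array, taken to vary like the others. Without array 2 of CD24+CD172a+ cDC2, 0 genes rose by limma (28 at an unadjusted p under 0.05, against 5.86% of all genes), and without its array 1, 3 rose. Without array 1 of CD24-CD172a+ cDC2, 3 rose, and without its array 2, 9 rose. Calls were lost among all genes too: 161 rose with all arrays, against 14 without array 2 of CD24+CD172a+ cDC2, 11 without its array 1, 45 without array 1 of CD24-CD172a+ cDC2 and 48 without its array 2. The difference stayed positive for 53 to 58 of the 59 genes in these 4 fits. Bub1 passed in 2 of the 4, Melk, Ndc80, Nusap1 and Ncapg in 0, and the other 11 in 1.

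For the comparison with CD24+ cDC1, leaving out an array of either population, between 16 and 27 genes rose: 16 without array 2 of CD24+CD172a+ cDC2, 27 without its array 1, 17 without array 1 of CD24+ cDC1 and 22 without its array 2. Over all genes, 908 to 970 rose in these 4 fits, against 1418 with all arrays. Of the 28 genes, 14 rose in all 4 fits: Fbxo5, Bub1, Cenpa, Ndc80, Spc25, Kif11, Kif4, Kif18b, Nusap1, Ckap2l, Ncapg, Ncaph, Top2a and Mki67. Kif15, Racgap1 and Smc4 rose in 0 of the 4, and Birc5 in 1; with all arrays, Birc5 rose over CD24+ cDC1 in 7 of 11 other settings.

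Other genes of the cell cycle were read from lists outside the 60, also chosen with earlier results of these data known. Of 64 further genes of mitosis, centromeres and centrioles, 9 rose in CD24+CD172a+ cDC2 over CD24-CD172a+ cDC2 and 0 fell, with a median of 0.35; the 4 with the largest rises were Knl1, the kinetochore scaffold that recruits Bub1, by 1.15 (adjusted p = 0.00537), Stil, a centriole duplication factor, by 0.97 (adjusted p = 0.0133), Shcbp1, by 0.92 (adjusted p = 0.0238), and Cenph, by 0.89 (adjusted p = 0.0401). Knl1 stood at 7.09 and 7.30 in CD24+CD172a+ cDC2, against 6.05 and 6.03 in CD24-CD172a+ cDC2 and 6.60 and 6.36 in CD24+ cDC1, with the arrays of CD24+CD172a+ cDC2 above the other 4. Over CD24+ cDC1, 18 of the 64 rose and 2 fell. Of 39 DNA replication genes, 7 rose over CD24-CD172a+ cDC2 and 0 fell, with a median of 0.34, among them Prim1, a primase subunit, by 1.08 (adjusted p = 0.0439), Lig1, DNA ligase I, by 1.02 (adjusted p = 0.0106), and Mcm7, a subunit of the replicative helicase, by 1.02 (adjusted p = 0.0049). Over CD24+ cDC1, 11 of the 39 rose and 0 fell, and in CD24-CD172a+ cDC2 over CD24+ cDC1, 2 rose and 9 fell. Between the cDC2 populations the difference was positive for 56 of the 64 genes and 37 of the 39, against 47.5% of all genes. The shares of all genes that rose and fell there were 0.808% and 0.652%. They were 7.11% and 6.52% in CD24+CD172a+ cDC2 over CD24+ cDC1, and 6.83% and 8.91% in CD24-CD172a+ cDC2 over CD24+ cDC1.

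None of 23 genes of the MuvB, B-Myb, FoxM1 and E2F regulators passed in limma between the cDC2 populations, where the median was 0.26. At an unadjusted p under 0.05, 8 of the 23 were higher and 0 lower, against the 7.89% and 6.15% of all genes given above. E2f8, a repressor that is itself periodic, had the smallest p, with 6.24 and 6.26 in CD24+CD172a+ cDC2, against 5.23 and 5.70 in CD24-CD172a+ cDC2 and 5.67 and 5.47 in CD24+ cDC1 and a difference of 0.78 ± 0.17 from CD24-CD172a+ cDC2 (adjusted p = 0.0513). Over CD24+ cDC1, 8 of the 23 rose and 1 fell, against 7.11% and 6.52% of all genes. Lin54, the MuvB subunit that contacts the homology region, was up by 1.49 in this comparison (adjusted p = 2.08e-05). Lin54 also rose in CD24-CD172a+ cDC2 over CD24+ cDC1, by 1.36 (adjusted p = 4.21e-05). Between the cDC2 populations its difference was 0.13 (adjusted p = 0.727). In the anaphase-promoting complex, 1 of 15 rose over CD24-CD172a+ cDC2, Cdc16, by 0.64 (adjusted p = 0.0426), and in cohesin and its loaders, 1 of 10, Smc3, by 0.71 (adjusted p = 0.0407). Of all genes, 0.808% rose and 0.652% fell between the cDC2 populations. Of 17 G1 cyclins and inhibitors of cyclin-dependent kinases, 1 rose and 2 fell, with a median of -0.16: Cdk4, the G1 kinase, rose by 0.79 (adjusted p = 0.0171), Ccnd2, cyclin D2, fell by 0.87 (adjusted p = 0.0106) and the antiproliferative gene Btg1 fell by 0.75 (adjusted p = 0.0499).

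Markers of other cell types moved between the cDC2 populations too, where 0.808% of all genes rose and 0.652% fell. Of 12 monocyte and macrophage markers, 7 fell in CD24+CD172a+ cDC2 relative to CD24-CD172a+ cDC2 and 0 rose, and their summed intensity was 3655 and 4266 units in CD24+CD172a+ cDC2, against 5809 and 6103 in CD24-CD172a+ cDC2 and 5650 and 5503 in CD24+ cDC1. Spic, a transcription factor of red pulp macrophages, fell by 1.56 (adjusted p = 0.00678). The sums rest on the brightest markers, and in CD24+ cDC1 the brightest of the 12 read 11.67 and 11.56. By median the order was another. The median of the 12 was 5.44 and 5.71 in CD24+CD172a+ cDC2, against 6.55 and 6.64 in CD24-CD172a+ cDC2 and 5.17 and 4.85 in CD24+ cDC1. Of 8 plasmacytoid dendritic cell markers, 3 rose and 0 fell, with sums of 792 and 774 units in CD24+CD172a+ cDC2, against 511 and 511 in CD24-CD172a+ cDC2 and 655 and 642 in CD24+ cDC1; Siglech read 5.73 and 5.99 in CD24+CD172a+ cDC2, against 4.83 and 4.74 in CD24-CD172a+ cDC2 and 4.71 and 4.70 in CD24+ cDC1, and Tcf4 and Spib also rose. Of 11 neutrophil markers, S100a8 and S100a9 rose and 0 fell, with sums of 352 and 318 units in CD24+CD172a+ cDC2, against 221 and 227 in CD24-CD172a+ cDC2 and 224 and 238 in CD24+ cDC1, while Ly6g lay between 3.06 and 3.09 in CD24+CD172a+ cDC2, among the lowest genes. Jchain was the 1 of 8 plasma cell markers that rose and Klrk1 the 1 of 8 NK cell markers. None of 7 progenitor, 10 B cell, 9 T cell and 7 erythroid markers passed in limma; at an unadjusted p under 0.05, the counts higher and lower were 3 and 1 for progenitor, 0 and 1 for B cell, 0 and 1 for T cell, and 0 and 1 for erythroid markers, where 7.89% of all genes were higher and 6.15% lower. The part of these cells in the levels of the mitosis and spindle genes was not tested.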

How the data were processed

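RNA of 3 sorted splenic dendritic cell populations was hybridised to 6 Affymetrix arrays, 2 per population. Column-purified RNA was labelled with the WT Pico kit, made for low input, per the labels' protocols. Per the submitters' processing notes, the authors used Affymetrix Expression Console with RMA; no version or build is given in the sources used here. The deposited intensity values are on a linear scale (array medians 29.5 to 30.6), so log2 was taken. RMA equalises the arrays' distributions, so a change of all genes together cannot be seen.

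Of 28853 probe sets, the 21789 with 1 gene symbol were used. For the 999 genes with several probe sets the brightest was kept, which gave 19938 genes with no filter on dim ones. Groups and replicate numbers came from the labels. All 6 arrays entered 1 fit in limma 3.58.1 (R 4.3.3; lmFit and eBayes; 3 residual and 7.31 prior degrees of freedom), with a coefficient per population and Benjamini-Hochberg adjustment over all genes in each of 3 comparisons. With 2 arrays against 2, an exact permutation test of 1 gene cannot go below 0.333 (two-sided), so none is given. On simulated data for CD24+CD172a+ over CD24-CD172a+ cDC2, with 200 of 19938 genes changed, the fit recovered 6.8% of genes with a log2 change of 0.5, 86.2% at a change of 1 and 100% at 2, and 5.63% of calls were false.

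The 60 genes, their roles, the other lists and the markers were chosen with earlier results of these data known. Named genes are all that passed between the cDC2 populations, the largest and smallest difference of each role, those that fell in any comparison, the 5 largest that passed in each other comparison, genes with several probe sets, and the brightest and dimmest; the remaining genes are named in a clause. From the other lists, up to 4 that passed are named, and for the regulators the gene with the smallest p between the cDC2 populations. Further regulators are named for the comparisons with CD24+ cDC1, among them genes that fell or did not pass. No gene is named from the progenitor, B cell, T cell and erythroid lists, where none passed between these populations. Promoter windows came from a RefSeq table of GRCm38.p6 and were searched for exact letters on both strands. Alternatives were probe set rules, filters on dim genes, another normalisation (quantile, median or cyclic loess), an offset of 16, an intensity trend with robust variance, a block for the replicate number, the 2 compared groups alone, and each array left out in turn.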

Additional observations from a re-analysis of the deposited data

How the results depend on the processing

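Across the alternatives, the count that rose in CD24+CD172a+ over CD24-CD172a+ cDC2 was 15 to 22 of 59 apart from leaving out arrays, and 0 to 16 when 1 array was left out; the median difference was then 0.454 to 0.676, and it was 0.699 over the 41 genes left by a filter at the median gene. With cyclic loess 58 of 59 differences were positive, and all genes split into 126 higher and 160 lower, against 161 and 130 as reported. Over CD24+ cDC1, 16 to 29 genes rose when 1 array was left out, and the median was 0.409 with an offset of 16, which compresses low values by construction. In CD24-CD172a+ cDC2 over CD24+ cDC1, 5 genes fell with the filter at the median gene and 4 with an intensity trend and robust variance. Leaving out 1 array, 1 to 3 rose and 0 to 4 fell there, and the median was -0.155 to 0.000556, changing sign without array 1 of CD24-CD172a+ cDC2; the cause was not tested. Over all 19938 genes, the deviations of same-numbered arrays correlated at 0.084, 0.084 and 0.024, so the numbers were not taken as pairs, although for the 59 genes array 2 was the higher in both cDC2 populations for most genes (50 and 43). With the replicate number as a block, 22 genes rose in CD24+CD172a+ over CD24-CD172a+ cDC2, 33 rose over CD24+ cDC1, and in CD24-CD172a+ cDC2 over CD24+ cDC1 3 rose and 4 fell. Of 2949 values of single genes under alternatives, 2752 stayed called or uncalled, 112 lost the call, 85 gained it and 0 changed sign after a call. In the 3 comparisons 16, 28 and 5 genes were called, so most of these values had no call to lose. The fit of the 2 compared groups and the fits without an array of the third population gave the same values, which were each counted. Among the values without a call, some changed sign. Only 2 arrays per population limit the precision; of the 16 calls between the cDC2 populations, 1 was kept in 2 of the 4 fits without a compared array, 11 in 1 and 4 in 0.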
